A study of Arabidopsis thaliana with 10 samples.

Results

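Wild-type Arabidopsis thaliana seedlings of the accession Col-0 were compared with and without rapamycin. The members are the 4 Col-0 libraries of a series of 10, chosen by their labels: 2 from mock-treated seedlings and 2 from seedlings given 100 nM rapamycin. All 10 libraries came from whole seedlings kept in darkness for 5 days, and every group, mock included, had 2 µM of a compound labelled PPZ in the medium. The other 6 libraries came from a line labelled RiD-BRI1/BAK1, here RiD. BRI1 is the cell-surface receptor for brassinosteroids, and BAK1 is the kinase that joins it as co-receptor. The RiD libraries had mock treatment, 100 nM rapamycin or 100 nM brassinolide, a brassinosteroid hormone. The sources used here give no promoter for the construct, no number of independent lines and no solvent for the mock. In Col-0 the comparison shows what the drug does in seedlings without the RiD construct.

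Rapamycin is a bacterial macrolide that binds the small prolyl isomerase FKBP12, and the pair then docks onto the FRB domain of the kinase TOR. TOR drives protein synthesis and growth when nutrients are plentiful, and yeast and animal cells treated with rapamycin curb ribosome production and turn on autophagy. Wild-type Arabidopsis is known to be far less sensitive, because its own FKBP12 binds the drug poorly. The same drug is used as a dimerizer that brings an FKBP-tagged and an FRB-tagged protein together.

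Totals of the Col-0 libraries ran from 23244655 to 24765705 normalized counts. Dividing by the value of 1 read in each column put the depth at about 18300000 to 19700000 reads for the libraries numbered 1 and about 31800000 to 32000000 for those numbered 2. Libraries of the same number deviated together in all groups, so the changes below are within-number differences: the number was a block in the fit. What the number marks is left unsaid in the labels, as is whether libraries came from separate plantings. The p-values thus reflect only how much these libraries vary, which may be technical variation. One library stood apart in a technical measure: in Col-0 mock 1 the value of 1 read was 1.32 normalized counts for mRNAs of up to 500 bases and 1.24 for those over 2500 bases, while in the other 3 Col-0 libraries the values of the same length classes were 0.733 and 0.733, 1.35 and 1.35, and 0.719 and 0.728.

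Few loci differed between rapamycin and mock in Col-0. Of 23285 loci tested, 43 had an adjusted p under 0.05 (limma, Benjamini-Hochberg over all loci) and are called here, which is 0.185%. Of these, 38 were lower with rapamycin (0.163% of loci) and 5 were higher (0.0215%). In RiD the same drug at the same dose changed 11215 loci, 48.2%, with 24.1% higher and 24.1% lower. The log2 changes of all loci had an SD of 0.415 in Col-0 and 1.15 in RiD.

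The Col-0 calls rest on the pairing by number. Without the block 0 loci were called by limma, and 557 (2.39%) had an unadjusted p under 0.05. With the block 1758 loci (7.55%) did, 4.17% with rapamycin lower and 3.38% with rapamycin higher. The calls also depend on which libraries are used. Most of the 43 were lost without Col-0 mock 1 and without Col-0 mock 2. Without Col-0 rapamycin 1 most of the 43 were kept and many more loci were called. Without Col-0 rapamycin 2 the number called was about that of the main fit.

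The data leave little room for large changes in well-measured loci. Of the 14846 loci with a mean of at least 100 normalized counts over the 4 Col-0 libraries, 98.3% had a 95% confidence interval wholly inside a 2-fold change, and of all tested loci 73.8% did. In the well-measured loci the 25th and 75th percentiles of the log2 changes were -0.10 and 0.09, and 45 loci reached 2-fold. Across these loci the change in the pair numbered 1 and that in the pair numbered 2 correlated at 0.129 in Col-0 and at 0.934 in RiD, a description over loci that share libraries. All 43 called loci moved the same way in both pairs, and in 42 of them the Col-0 groups did not overlap. The calls were made on these same pairs, so both traits follow largely from the choice and are no separate evidence. Over all loci the groups did not overlap in 11.3% with rapamycin lower and in 9.59% with rapamycin higher.

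**Figure D1:**
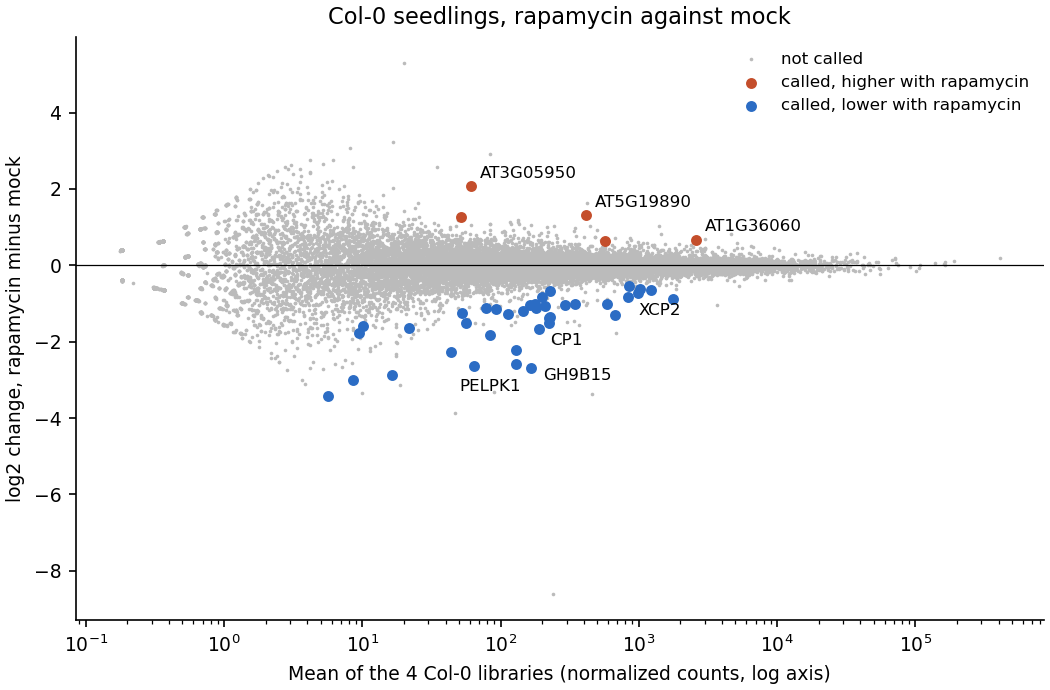
Change of each tested locus in Col-0 (vertical axis, log2 rapamycin minus mock) against its mean over the 4 Col-0 libraries (horizontal log axis, normalized counts), with called loci in colour. Of the 43 called loci 38 lie below 0, and the spread of the grey points widens toward low means.

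Genes of the TOR pathway and the FKBP family did not pass the test in Col-0. FKBP12 (AT5G64350), the binding protein of the drug, had 5014 and 3148 normalized counts in mock and 4939 and 3760 with rapamycin. The groups overlapped, and the log2 change was 0.12 with a 95% interval of -0.11 to 0.34 (adjusted p = 0.859). TOR (AT1G50030), the kinase itself, had 951 and 2147 in mock and 1042 and 1642 with rapamycin, a log2 change of -0.13 (interval -0.63 to 0.37). Its values differed more between the numbers 1 and 2 than between treatments.

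The 21 members of the FKBP family all had an interval inside 2-fold, with a median log2 change of 0.02 and 0 called. In RiD the same family had a median of -0.37 with 11 called lower, against 24.1% of all loci, and with all libraries scaled to the same total 17 were called lower with a median of -0.51. For 12 members the rapamycin effect was called lower in RiD than in Col-0, against 15.7% of all loci. ROF1 (AT3G25230), an FKBP linked to heat stress, had the smallest p of the family in Col-0, with 2237 and 1793 normalized counts in mock and 1983 and 1322 with rapamycin, where the ranges overlapped (log2 change -0.31, adjusted p = 0.427).

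Of 15 TOR complex members and effectors 14 were tested and 0 were called, with a median of -0.08. RAPTOR1 (AT3G08850), the subunit that presents substrates to TOR, had a log2 change of -0.11 (interval -0.42 to 0.19). The S6 kinases PK1 (AT3G08730) and S6K2 (AT3G08720), direct TOR substrates, changed by 0.09 (interval -0.11 to 0.28) and 0.13 (interval -0.08 to 0.35).

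Gene groups that lie downstream of TOR in yeast and animals had no called member in Col-0. The 25 cytosolic ribosomal protein genes had a median log2 change of 0.03 and a range of -0.10 to 0.13, with 0 of 25 called and all 25 intervals inside 2-fold. In RiD 23 of the 25 were called lower, against 24.1% of all loci, with a median of -0.80, and for the same number the difference between the lines was called. The 11 genes of nucleolar ribosome assembly had a median of -0.05, the 32 autophagy genes 0.005, the 19 genes of dark and sugar starvation 0.035 and the 5 subunit genes of the SnRK1 kinase, the energy sensor that opposes TOR, 0.01. Every member of these 4 lists had an interval inside 2-fold. In RiD 26 of the autophagy genes and 18 of the starvation genes were called higher, against 24.1% of all loci, and with all libraries scaled to the same total 19 and 18 were.

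**Figure D2:**
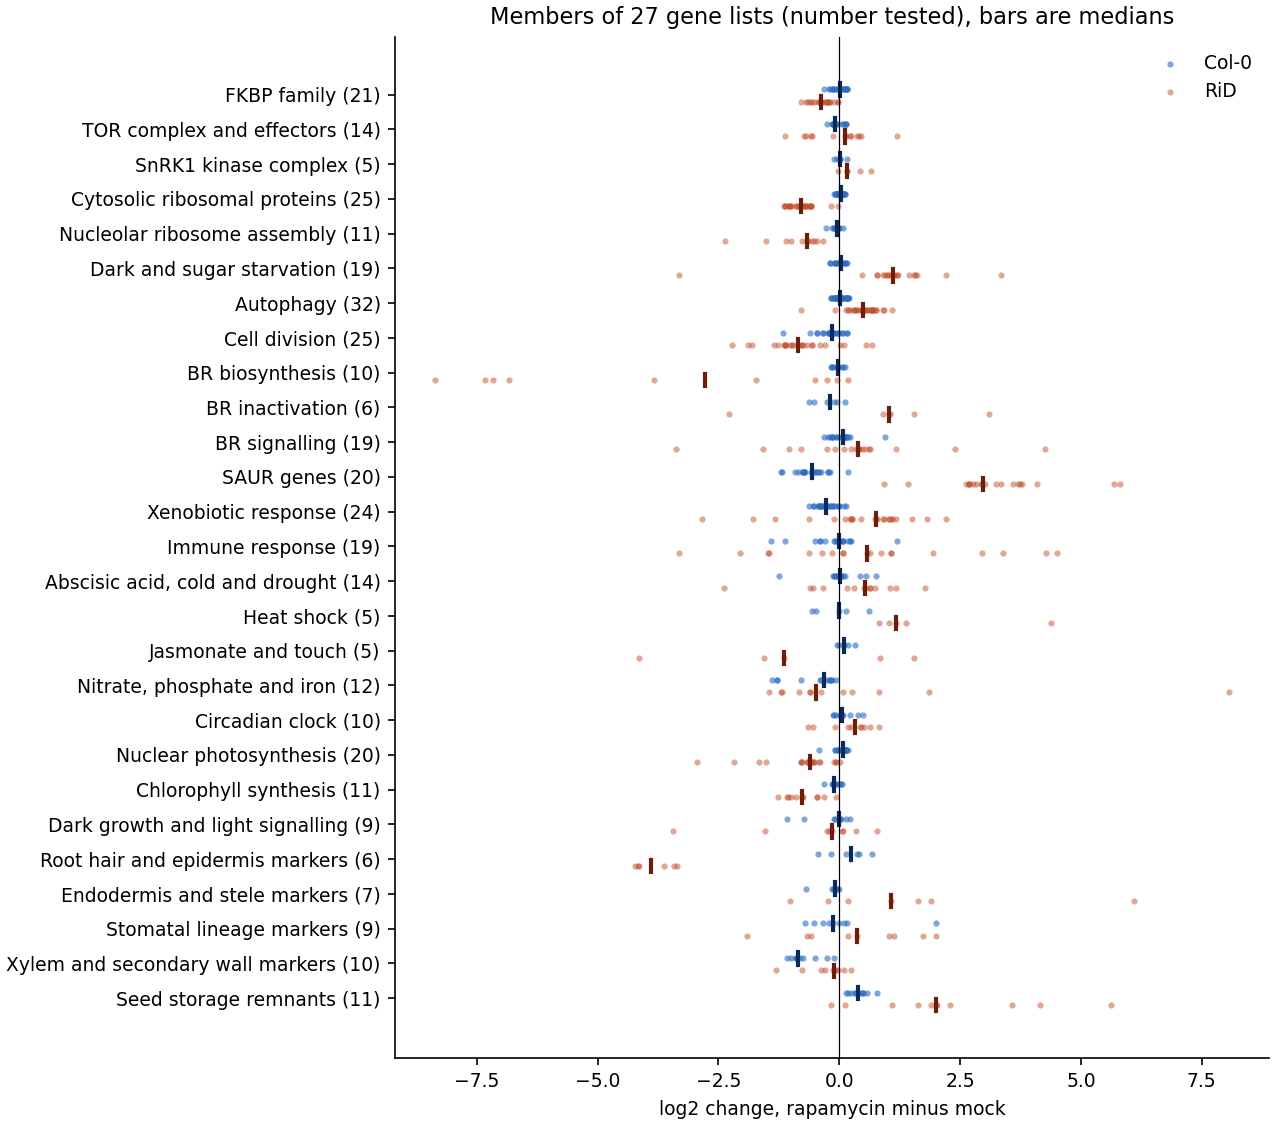
Log2 change with rapamycin (horizontal axis) of each tested member of 27 gene lists in Col-0 (blue) and RiD (red), with the median of each list as a dark bar and the number tested in brackets. The Col-0 medians run from -0.84 for xylem and secondary wall markers to 0.39 for seed storage remnants, whereas the RiD medians run from -3.89 to 2.98.

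The called loci that were lower with rapamycin included peptidases, nucleases, cell wall proteins and enzymes of lignin and surface lipids. Grouped by their annotated products, after the calls had been seen and so without a test, 7 were peptidases, 2 nucleases, 8 wall proteins, glycosyl hydrolases or their inhibitors, 4 enzymes of phenylpropanoid, lignin or surface lipid synthesis, 4 defence related, 6 metal or redox proteins and 7 others. In bulk seedlings, fewer cells of a type and less RNA per cell cannot be told apart.

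PELPK1 (AT5G09530), a hydroxyproline-rich protein of the cell wall, had 241 and 207 normalized counts in mock and 39.0 and 34.1 with rapamycin. Both treated libraries lay far below both mock libraries, 5.995-fold lower on the log2(value + 1) scale (log2 change -2.58, SE 0.18, adjusted p = 3.41e-05, range over all settings tried 4.06e-07 to 0.279). It was called in 18 of 20 settings, and in all 10 fits that left out a library. GH9B15 (AT4G23560), a member of the endoglucanase family 9, had 217 and 357 in mock and 45.7 and 39.2 with rapamycin (log2 change -2.69, SE 0.29, adjusted p = 0.00135). EXPA2 (AT5G05290), an expansin that loosens walls, had 243 and 185 in mock and 52.4 and 38.4 with rapamycin. AT5G46960, an inhibitor-like protein of the invertase and pectin methylesterase inhibitor family, had 154 and 64.5 in mock and 30.8 and 7.20 with rapamycin. The similar neighbouring gene AT5G46950 had 23.1 and 8.79 in mock and 2.68 and 0 with rapamycin. How reads shared by these 2 neighbours were split is not known, so they may be 1 signal.

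The peptidases were 1.77-fold to 3.17-fold lower. CP1 (AT4G36880), a papain-type cysteine protease, had 313 and 270 normalized counts in mock and 96.8 and 85.6 with rapamycin (log2 change -1.66, SE 0.14, adjusted p = 8.37e-05). A second cysteine protease, AT1G29090, had 1066 and 854 in mock and 477 and 315 with rapamycin (log2 change -1.30, SE 0.12, adjusted p = 0.000174). The treated values of both genes lay below the mock values in each pair and across pairs, and both were called in all 10 fits that left out a library. Also called were the xylem peptidases XCP1 and XCP2 described below, the vacuolar processing enzyme ALPHA-VPE (AT2G25940), the serine carboxypeptidase scpl48 (AT3G45010) and the aspartyl protease AT4G04460.

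The 2 nucleases were BFN1 (AT1G11190), a nuclease that degrades DNA and RNA in dying cells, and RNS3 (AT1G26820), a secreted-type ribonuclease. BFN1 had 76.5 and 73.3 normalized counts in mock and 33.6 and 28.3 with rapamycin (log2 change -1.25, SE 0.22, adjusted p = 0.0406). RNS3 had 123 and 135 in mock and 56.4 and 22.5 with rapamycin (log2 change -1.82, SE 0.28, adjusted p = 0.0219). For RNS3 the change was -1.11 in the pair numbered 1 and -2.54 in that numbered 2, and for BFN1 -1.16 and -1.34. Each of these calls was lost in some of the fits that left out a library: BFN1 was called in 3 of 10 and RNS3 in 6.

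Enzymes that feed lignin and surface polymers were among the smaller changes. PAL1 (AT2G37040), the entry enzyme of the phenylpropanoid pathway, had 1211 and 1248 normalized counts in mock and 806 and 791 with rapamycin, 1.54-fold lower (adjusted p = 0.0219). RWP1 (AT5G41040), an acyltransferase that adds ferulate to suberin, had 288 and 271 in mock and 196 and 154 with rapamycin. GPAT3 (AT4G01950), a glycerol-3-phosphate acyltransferase, had 228 and 247 in mock and 130 and 105 with rapamycin, 2.02-fold lower (adjusted p = 0.00822). Spread within a group was small for these genes, and no treated value reached a mock value.

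Among defence-related loci, EDS16 (AT1G74710), the isochorismate synthase of salicylic acid production, had 272 and 225 normalized counts in mock and 128 and 98.9 with rapamycin (log2 change -1.13, SE 0.16, adjusted p = 0.0117). PR4 (AT3G04720), a hevein-like pathogenesis-related protein, had 1722 and 1264 in mock and 1130 and 797 with rapamycin, 1.55-fold lower (adjusted p = 0.0167). GL22 (AT1G02335), a germin-like protein, was 2.85-fold lower. The chitinase-family gene AT2G43590 was the only called locus with overlapping groups, with 1424 and 995 in mock and 1024 and 498 with rapamycin. Of the immune response list as a whole, 1 of 19 tested members (EDS16) was called, against 0.163% of all loci called lower. The list's median was -0.01, beside -0.0014 over all loci. Its treated libraries lay below both mock libraries in 5 members (11.3% of all loci) and above both in 3 (9.59%).

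Other called loci spanned metal, redox and hormone functions. NAS3 (AT1G09240), a nicotianamine synthase that makes a metal chelator, had 17.5 and 5.13 normalized counts in mock and was listed at 0 in both treated libraries. ACS8 (AT4G37770), an enzyme of ethylene synthesis, had 14.97 and 15.4 in mock and 2.69 and 5.09 with rapamycin, a few reads in each treated library. NDB3 (AT4G21490), an NAD(P)H dehydrogenase of mitochondria, had 89.8 and 54.2 in mock and 22.9 and 7.99 with rapamycin. MEE23 (AT2G34790), of the berberine bridge enzyme family, was 2.54-fold lower and the transcription factor NAC003 (AT1G02220) 2.06-fold lower.

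**Figure D3:**
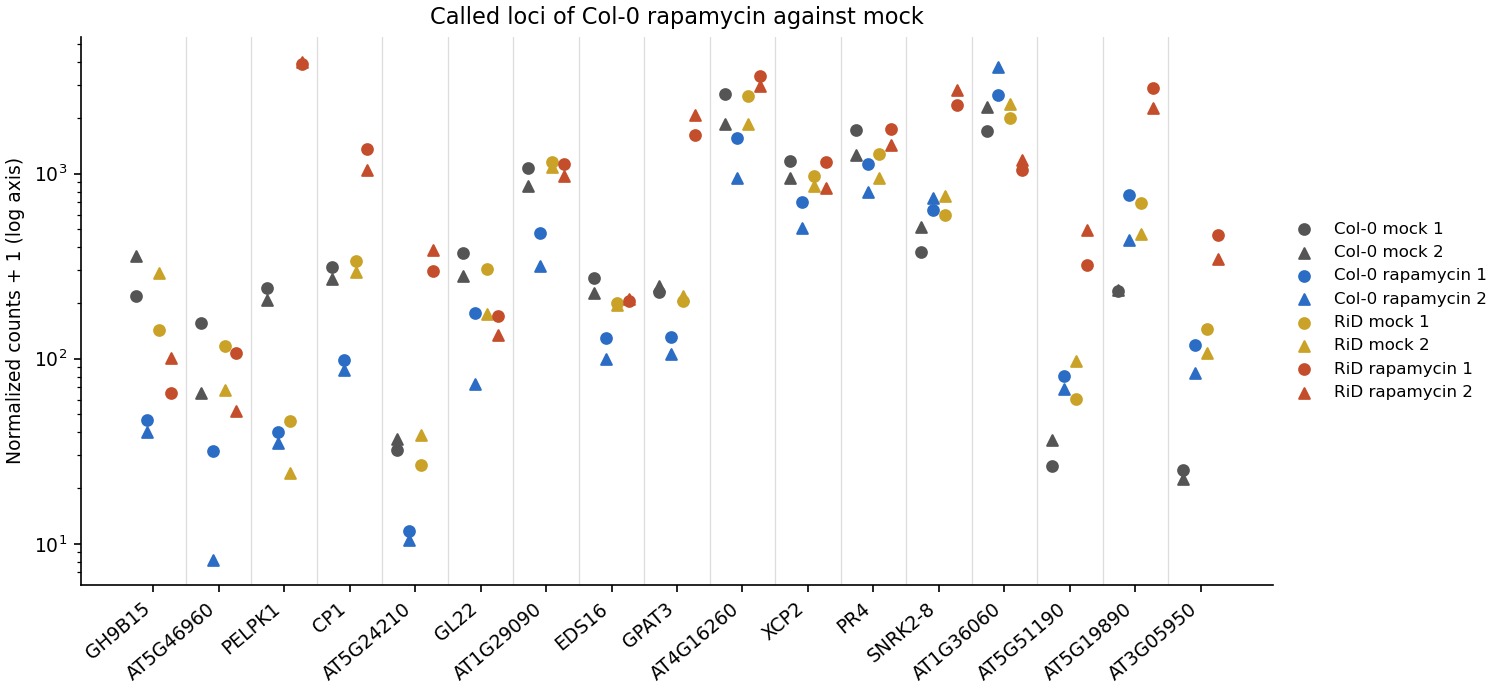
Normalized counts plus 1 (log axis) of the called loci among the 12 with the smallest p in each direction, with 1 symbol per library, colour for group and shape for number. In each locus shown the blue symbols of Col-0 rapamycin lie wholly on one side of the grey symbols of Col-0 mock. The red RiD rapamycin symbols lie above all others of the locus in PELPK1, CP1, GPAT3, AT5G24210, AT4G16260, AT3G05950, AT5G19890, AT5G51190 and SNRK2-8.

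Only 5 loci were called higher in Col-0, and none of them belonged to the gene lists. AT3G05950, a cupin-domain protein, had 24.1 and 21.3 normalized counts in mock and 118 and 82.4 with rapamycin. Both treated libraries were at least 3 times as high as either mock library, 4.22-fold on the log2(value + 1) scale (log2 change 2.08, SE 0.16, adjusted p = 3.41e-05, range over settings 2.68e-05 to 0.493), and the locus was called in all 10 fits that left out a library. AT5G19890, a class III peroxidase, had 232 and 235 in mock and 765 and 437 with rapamycin, 2.47-fold (adjusted p = 0.0228). Its change was 1.72 in the pair numbered 1 and 0.90 in that numbered 2.

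Of the other loci called higher, 2 encode AP2/ERF-type transcription factors, which the reference describes as integrase-type DNA-binding proteins. AT1G36060 had 1706 and 2296 normalized counts in mock and 2642 and 3780 with rapamycin, 1.60-fold (adjusted p = 0.0228). AT5G51190 had 25.3 and 35.2 in mock and 79.2 and 67.9 with rapamycin, 2.41-fold (adjusted p = 0.0406). The kinase SNRK2-8 (AT1G78290), of the SnRK2 family that acts in osmotic stress and abscisic acid signalling, had 376 and 514 in mock and 636 and 738 with rapamycin, 1.56-fold (adjusted p = 0.0464). The Col-0 groups did not overlap in these 3 loci, and SNRK2-8 was called in 3 of the 10 fits that left out a library. The next locus by p, FRO3 (AT1G23020), a ferric reductase, was not called (log2 change 0.56, adjusted p = 0.0631).

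Of the gene lists, xylem and secondary wall markers had the lowest median. All 10 members were below 0, with a median log2 change of -0.84, beside 50.9% of all loci below 0. Of the 10, 3 were called lower (0.163% of all loci), 7 had an unadjusted p under 0.05 in that direction (4.17% of all loci), and in 7 the treated libraries lay below both mock libraries (11.3% of all loci). Like all 27 lists, this one was written with earlier results of these data known. The direction of a list is therefore not independent evidence, here and in the lists below. The list's summed level was 3061 to 3452 normalized counts in mock and 1659 to 1952 with rapamycin, and no member was at 0.

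The 3 called members were 2 peptidases and a laccase. XCP2 (AT1G20850), a peptidase that clears the contents of dying xylem vessel cells, had 1175 and 946 normalized counts in mock and 699 and 510 with rapamycin (log2 change -0.82, SE 0.12, adjusted p = 0.0167). The related XCP1 (AT4G35350) had 804 and 774 in mock and 450 and 342 with rapamycin (log2 change -1.01, SE 0.17, adjusted p = 0.0479). LAC17 (AT5G60020), a laccase that polymerizes lignin, had 239 and 338 in mock and 135 and 134 with rapamycin (log2 change -1.08, SE 0.19, adjusted p = 0.0413). The second lignin laccase, IRX12 (AT2G38080), stood just outside the threshold, with 244 and 491 in mock and 170 and 211 with rapamycin (log2 change -0.87, adjusted p = 0.0522).

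The cellulose synthases of the secondary wall gave mixed values and none was called. CESA4 (AT5G44030) had 280 and 309 normalized counts in mock and 195 and 157 with rapamycin (log2 change -0.75, adjusted p = 0.232). IRX1 (AT4G18780) had 134 and 237 in mock and 83.5 and 110 with rapamycin (log2 change -0.89, adjusted p = 0.161). IRX3 (AT5G17420) overlapped between groups, with 140 and 292 in mock and 190 and 151 with rapamycin, and its pairs moved oppositely, by 0.43 and -0.95. The regulators were low: VND7 (AT1G71930), a NAC master switch of vessel formation, had 13.8 and 22.0 in mock and 14.8 and 17.4 with rapamycin. MYB46 (AT5G12870), a regulator of secondary walls below the NAC switches, had 22.6 and 29.3 in mock and 10.8 and 16.7 with rapamycin (log2 change -0.89, adjusted p = 0.547), and NAC101 (AT5G62380), a relative of VND7, had 7.55 and 13.2 in mock and 4.03 and 10.9 with rapamycin.

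A published promoter element, the tracheary element-regulating cis-element, has been described for xylem vessel genes. It was searched on both strands in the 250 bases before each gene start of the RefSeq annotation of TAIR10.1, matched by locus, since the deposited values name no build. It was found before 94 of 22448 tested loci, 0.419%, before 2 of the 10 xylem loci, and before 1 of the 43 called loci. The 2 windows shown are those of the xylem loci with a match, XCP1, which was called, and CESA4, which was not. These genes were not tested against each other, and the intervals of their log2 changes overlapped (-1.38 to -0.63 and -1.14 to -0.35). The match, 11 bases in capitals, starts 75 bases before the gene start of XCP1 (chr4:16810232-16810481, + strand) and 20 bases before that of CESA4 (chr5:17714140-17714389, + strand), both on the gene's strand.
XCP1: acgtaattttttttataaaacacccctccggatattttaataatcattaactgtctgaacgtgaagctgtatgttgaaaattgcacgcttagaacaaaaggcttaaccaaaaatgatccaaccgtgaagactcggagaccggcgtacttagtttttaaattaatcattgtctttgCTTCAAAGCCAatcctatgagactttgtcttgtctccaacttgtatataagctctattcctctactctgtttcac
CESA4: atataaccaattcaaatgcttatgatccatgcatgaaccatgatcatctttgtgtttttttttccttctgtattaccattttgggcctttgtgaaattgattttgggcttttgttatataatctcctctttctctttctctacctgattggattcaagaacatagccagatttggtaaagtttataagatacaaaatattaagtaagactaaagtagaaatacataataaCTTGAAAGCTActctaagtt
A match is a description of these letters, and no binding was measured.

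The xylem list was closer to 0 in RiD. Its median was -0.11, and 1 of 10 members was called, VND7, which was lower, against 48.2% of all loci called in RiD. The rapamycin effect differed between the lines for 4 members, XCP2, IRX12, LAC17 and IRX1, each with RiD above Col-0. That share is near the 33.9% of all loci with a called difference. XCP2 had 971 and 857 normalized counts in RiD mock and 1149 and 835 in RiD rapamycin, a difference between the lines of 0.92 on the log2 scale. The xylem counts depend on the fit: 0 members were called without the block, 0 without Col-0 mock 1, Col-0 mock 2 or Col-0 rapamycin 2, and 7 without Col-0 rapamycin 1, while the list's median stayed between -1.02 and -0.67 in these fits.

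**Figure D4:**
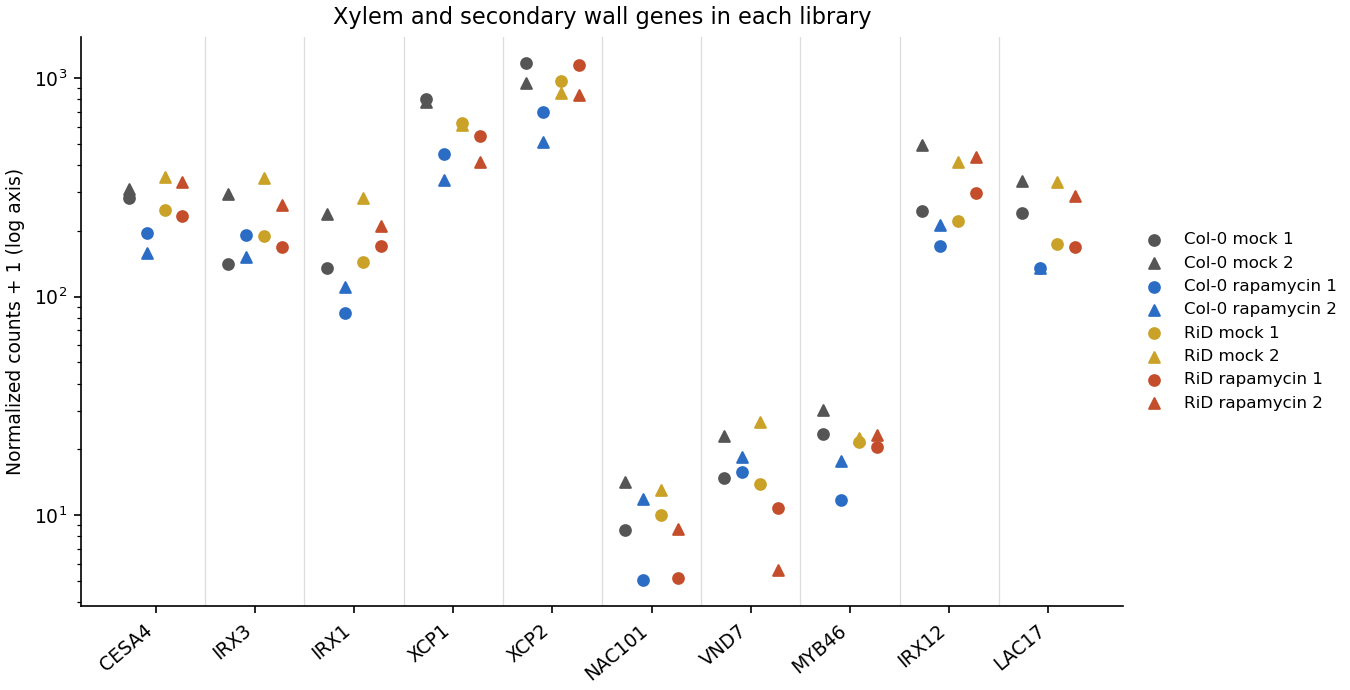
Normalized counts plus 1 (log axis) of the 10 xylem and secondary wall genes in each Col-0 and RiD library, with colour for group and shape for number. The blue symbols of Col-0 rapamycin lie below the grey symbols of Col-0 mock in 7 of 10 genes, and IRX3, VND7 and NAC101 overlap.

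Markers of other cell types had no called member, and their medians lay on both sides of the all-loci median of -0.0014. The 7 endodermis and stele markers were all below 0 (50.9% of all loci), with a median log2 change of -0.08. Their median was 0.06 in the pair numbered 1 and -0.23 in the pair numbered 2. Their summed level was 9291 to 10858 normalized counts in mock and 9399 to 10063 with rapamycin. The 6 root hair and epidermis markers had a median of 0.25 and sums of 161 to 298 and 255 to 279. The 9 stomatal lineage markers had a median of -0.13 and sums of 281 to 313 and 255 to 257. In the pairs numbered 1 and 2 the medians were 0.30 and -0.01 for the root hair list and -0.15 and 0.05 for the stomatal list. BASL (AT5G60880), a polarity protein of the stomatal lineage, had 1.26 and 2.93 in mock, at most a few reads. It had 14.8 and 7.97 with rapamycin (log2 change 2.00, adjusted p = 0.281). The 11 seed storage genes were all above 0, with a median of 0.39, but the median was 1.02 in the pair numbered 1 and -0.13 in the pair numbered 2. Their sums ran from 3881 to 12371 in mock and 7527 to 12790 with rapamycin, so that the groups overlapped. No member of these 4 lists was at 0 in all Col-0 libraries. The part of cell makeup in the xylem result was not tested.

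Genes of xenobiotic response mostly had values below 0. Of 24 tested, 22 were below 0 (50.9% of all loci), with a median log2 change of -0.27. An unadjusted p under 0.05 in that direction was found for 11 (4.17% of all loci), and 1 was called (0.163%). That member, GSTU24 (AT1G17170), a glutathione transferase that conjugates foreign compounds, had 1196 and 814 normalized counts in mock and 802 and 567 with rapamycin, 1.46-fold lower (adjusted p = 0.0406). The lower mock value lay close to the higher treated one. GSTU19 (AT1G78380), the most abundant transferase of the list, had 11473 and 6972 in mock and 8755 and 5389 with rapamycin (log2 change -0.38, adjusted p = 0.0887). OPR1 (AT1G76680), an oxophytodienoate reductase, had 2060 and 1670 in mock and 1417 and 1182 with rapamycin (log2 change -0.52, adjusted p = 0.0639). The list had 7 called members without Col-0 rapamycin 1, and 0 without any other Col-0 library.

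Nitrate, phosphate and iron genes had 0 of 12 called. All 12 were below 0 (50.9% of all loci), with a median of -0.33. In 8 the treated libraries lay below both mock libraries (11.3% of all loci). IRT1 (AT4G19690), the main iron uptake transporter of roots, had 23.8 and 19.8 normalized counts in mock and 4.03 and 13.8 with rapamycin (log2 change -1.40, adjusted p = 0.472). The iron regulators FRU (AT2G28160) and bHLH39 (AT3G56980) had log2 changes of -0.40 and -0.80, and the nitrate reductases NIA1 (AT1G77760) and NIA2 (AT1G37130) -0.28 and -0.15. FER1 (AT5G01600), the iron store ferritin, had 25329 and 22099 in mock and 25094 and 20304 with rapamycin (log2 change -0.07).

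Genes of the brassinosteroid pathway did not pass the test in Col-0. BRI1 (AT4G39400) had 3420 and 5625 normalized counts in mock and 3962 and 4584 with rapamycin (log2 change -0.04, interval -0.27 to 0.19), and BAK1 (AT4G33430) had 2104 and 1899 in mock and 2021 and 1972 with rapamycin (log2 change 0.00, interval -0.18 to 0.18). The 10 biosynthesis genes had a median of -0.04 with 0 called in Col-0, against -2.78 with 7 called lower in RiD (24.1% of all loci), and the RiD effect was called below the Col-0 effect for 7 (15.7%). BR6OX2 (AT3G30180), the last oxidase of the pathway, had 8197 and 6802 in Col-0 mock and 7399 and 6039 in Col-0 rapamycin (log2 change -0.16), and averaged 7464 in RiD mock and 22.0 in RiD rapamycin. The 19 signalling genes had a median of 0.07. Among the 6 inactivation genes 3 had an unadjusted p under 0.05 and a value below 0 (4.17% of all loci), led by DOGT1 (AT2G36800), a glucosyltransferase of brassinosteroids, with 345 and 205 in mock and 226 and 129 with rapamycin (log2 change -0.63, adjusted p = 0.144).

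SAUR genes, small auxin-up RNAs tied to cell expansion, had a list median that depended on 1 library. Of 20, 19 were below 0 (50.9% of all loci) with a median log2 change of -0.57 and 0 called. The median was -1.09 in the pair numbered 1 and 0.085 in the pair numbered 2. In 9 members, however, the treated libraries lay below both mock libraries (11.3% of all loci). An unadjusted p under 0.05 in that direction was found for 3 (4.17% of all loci). SAUR19 (AT5G18010) had 166 and 124 normalized counts in mock and 41.5 and 138 with rapamycin. Without Col-0 rapamycin 1 the list's median was 0.09, and without Col-0 rapamycin 2 it was -1.21 with 2 called. These are short transcripts, of 495 to 1048 bases, and the number of copies with similar sequence makes the split of reads uncertain. Over loci with mRNAs of up to 500 bases the median change was -0.08 in pair 1 and 0.28 in pair 2, and over those above 2500 bases 0.06 and -0.14; the part of length in the SAUR values was not tested. In RiD all 20 were called higher, against 24.1% of all loci.

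The remaining lists had 0 called members in Col-0. The 25 cell division genes had a median of -0.16 with 21 below 0 (50.9% of all loci). Their median was -0.035 in the pair numbered 1 and -0.252 in the pair numbered 2. The 20 nuclear photosynthesis genes had a median of 0.08 and the 11 chlorophyll synthesis genes -0.10. The median was -0.02 for the 9 genes of dark growth and light signalling, and 0.05 for the 10 clock genes. CYC1BAT (AT5G06150), a B-type cyclin of mitosis, had 91.1 and 117 normalized counts in mock and 67.3 and 82.8 with rapamycin (log2 change -0.46, adjusted p = 0.547). The 14 genes of abscisic acid, cold and drought had a median of 0.01, the 5 heat shock genes -0.005 and the 5 genes of jasmonate and touch 0.09. Over all 27 lists, 5 of 377 tested loci were called, against 0.185% of all loci, and each is named above.

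The loci that changed most in RiD were centred near 0 in Col-0. In RiD 1031 loci were called at least 4-fold higher, with a median log2 change of 2.81. In Col-0 the same loci had a median of -0.02 with 25th and 75th percentiles of -0.40 and 0.24. Of these loci 9 were called in Col-0, against 0.185% of all loci. The 662 loci called at least 4-fold lower in RiD had a median of -2.76 there and -0.02 in Col-0, where 1 was called. A Col-0 interval inside 2-fold was found for 375 of the 1031 and 232 of the 662, against 73.8% of all loci. For the others the Col-0 libraries do not bound the change within 2-fold. Across the 14449 loci well measured in both lines the 2 effects correlated at 0.0111, a description over loci. The difference between the lines was called for 7893 loci (33.9%), 4238 with RiD above Col-0 and 3655 (15.7%) below, and when all libraries were scaled to the same total, 3495 above and 5220 below. That scaling moved the median RiD effect from -0.03 to -0.16 on the log2 scale and did not move the Col-0 median.

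**Figure D5:**
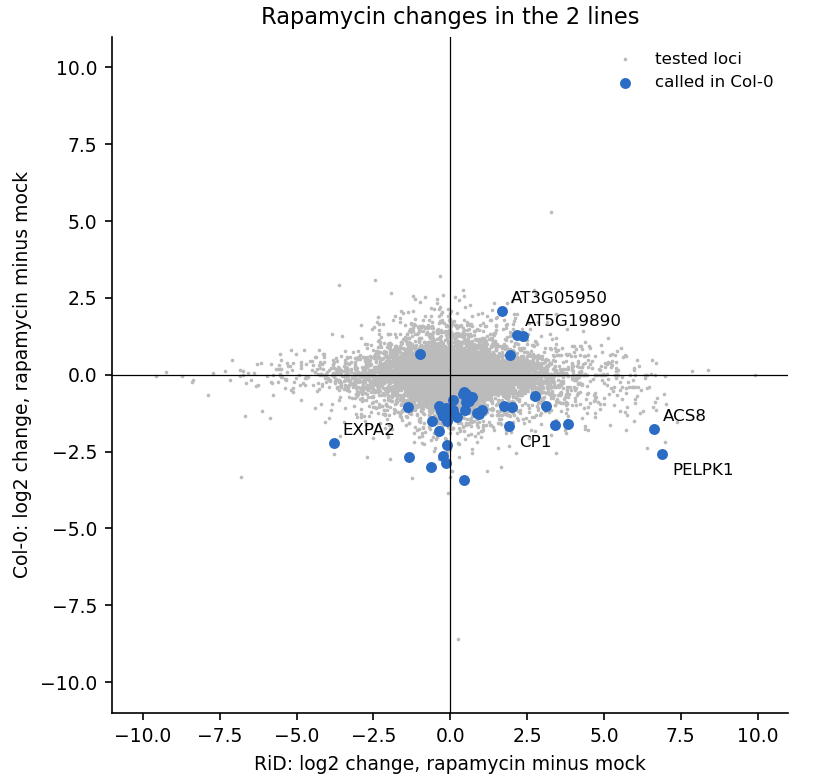
Log2 change with rapamycin in Col-0 (vertical axis) against RiD (horizontal axis) for all tested loci, with the 43 loci called in Col-0 in blue. The grey cloud is wide along the RiD axis and narrow along the Col-0 axis, with SDs of 1.15 and 0.415, and PELPK1 and ACS8 lie at the right below 0.

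Some loci called in Col-0 were called in the other direction in RiD. Of the 43, 27 were also called in RiD, which is 62.8% of the Col-0 calls and 0.241% of the RiD calls; 8 had the same sign and 19 the opposite one. Of all loci, 48.2% were called in RiD, 24.1% in each direction. Of these 19, 18 were lower in Col-0 and higher in RiD. The 2 comparisons share no library, but both come from the same fit and use the same residual spread per locus. A locus with a small spread is thus more readily called in both. The difference between the lines reuses the Col-0 values that chose the 43 loci, so it is given below as a description with no test.

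Among the 43 loci PELPK1 had the largest difference between the lines. It had 45.2 and 23.2 normalized counts in RiD mock and 3908 and 4023 in RiD rapamycin, so that RiD mock was at the level of Col-0 rapamycin and not of Col-0 mock. The difference between the lines' effects was 9.48 on the log2 scale. CP1 had 338 and 293 in RiD mock, close to Col-0 mock, and 1349 and 1042 in RiD rapamycin, a difference of 3.57. ACS8 had 6.45 and 6.40 in RiD mock and 634 and 857 in RiD rapamycin, and GPAT3 rose from 204 and 218 to 1617 and 2068.

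A smaller set moved alike in both lines. AT3G05950 had 143 and 107 normalized counts in RiD mock and 467 and 345 in RiD rapamycin, a log2 change of 1.69 beside 2.08 in Col-0 (difference -0.39). NAC003 had 264 and 273 in RiD mock and 107 and 98.6 in RiD rapamycin, a log2 change of -1.38 beside -1.04 in Col-0 (difference -0.33). EXPA2 was lower in both lines and more so in RiD, with 96.7 and 95.9 in RiD mock and 6.95 and 5.35 in RiD rapamycin (difference -1.56).

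The level of the untreated RiD line gave a further comparison for the called loci. The RiD mock mean lay nearer to Col-0 mock for 32 of the 43 loci and nearer to Col-0 rapamycin for 11. Among the 5 loci called higher, 4 were in the second set: AT5G19890, for example, had 694 and 472 normalized counts in RiD mock, against 232 and 235 in Col-0 mock and 765 and 437 in Col-0 rapamycin. AT5G51190 had 59.3 and 96.6 in RiD mock, likewise at the level of treated Col-0.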

How the data were processed

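The labels give polyadenylated RNA from whole seedlings and the TruSeq Stranded mRNA kit. The deposited unit is a signal: counts per transcript that the authors had normalized between libraries. Salmon and DESeq2 appear in the submitters' processing notes. Versions, settings, annotation, build and use of strand are in none of the sources used here. The value of 1 read differed between transcripts of a column, so whole reads were not recovered.

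Values of 40812 transcripts were summed to 32753 loci, and 705 loci had no entry in the TAIR10.1 table of symbols. Groups and numbers came from the labels. A locus was tested if 2 or more libraries reached 1 normalized count (23285 loci). Log2(value + 1) was fitted with limma 3.58.1 (trend, robust) on 5 groups with the number as block, using all 10 libraries and leaving 4 residual degrees of freedom. The comparison pairs libraries by number, and same-numbered libraries deviated together from their group means, with correlations from 0.32 to 0.51 over the 10 group pairs. P-values were adjusted by Benjamini-Hochberg over all loci. The fit was tested on simulated data.

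The comparison and the 27 lists were chosen with earlier results of these data known. Loci are named by these rules: the smallest p and defining members of each list, the 12 smallest p and 5 largest changes each way with a mean of at least 20, the 6 largest RiD changes each way, and loci called in both lines. The 5 largest changes were taken among loci whose Col-0 groups did not overlap. Other called loci, and further list members, were named after their values were seen. Tried were 19 alternatives.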

Additional observations from a re-analysis of the deposited data

Results flagged for a closer look

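Between Col-0 and RiD the effect of rapamycin differed for 7893 loci by the interaction term of the limma fit. Among the called Col-0 loci with the smallest p-values, the RiD effect minus the Col-0 effect was largest for PELPK1, at 9.48 on the log2 scale. AT5G24210, an alpha/beta-hydrolase, went from 31.3 and 35.9 normalized counts to 10.8 and 9.43 with the drug in Col-0, and from 25.8 and 37.6 to 298 and 385 in RiD, a difference of 5.04. The differences were 4.12 for GPAT3, 3.57 for CP1 and 2.39 for AT5G46960.

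The other differences had RiD above Col-0 by 1.40 for AT4G16260, 1.35 for GH9B15, 1.298 for SNRK2-8, 1.21 for EDS16, 1.198 for AT1G29090, 1.16 for PR4, 1.11 for AT5G51190, 0.92 for XCP2, 0.91 for GL22 and 0.85 for AT5G19890. For AT1G36060 the difference was -1.65: it was called higher in Col-0 and lower in RiD, where it had 2003 and 2377 normalized counts in mock and 1039 and 1182 with rapamycin. Each difference had an adjusted p under 0.05, but these loci were chosen for their Col-0 change, and the difference reuses the same Col-0 libraries, so its sign and call were partly set by that choice. With 2 libraries a group, the expression values cannot show which of the 2 stands apart from its group. The technical measure given above for Col-0 mock 1 is a separate matter.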

How the results depend on the processing

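The replicate block decides the Col-0 calls: without the pairing 0 loci were called, and the counts for RiD and for the difference between the lines were 5120 and 2341 against 11215 and 7893 with it. Plain moderation, with no trend and not robust, called 8 in Col-0, of which 1 was among the 43. Leaving out 1 library gave 5 to 407 Col-0 loci. The low end came without Col-0 mock 1, the high end without Col-0 rapamycin 1 (142 higher and 265 lower), and the count was 10 without Col-0 mock 2 and 27 without RiD brassinolide 1. Across these 10 fits RiD gave 8004 to 12066 loci and the difference 5693 to 8279. The other settings gave 32 to 47 Col-0 loci. PELPK1, AT3G05950, CP1 and AT1G29090 were called in each leave-one-out fit and in none without the block. The share of loci with an interval inside 2-fold was 62.3% to 88.9%. Over named loci, most of which were not called, 3221 results kept direction and side of the threshold, 319 lost the call, 28 gained it and none reversed. Only the 43 called loci could lose a call, so all 319 losses fell among them over the 19 alternatives. Causes were not tested. The count tests of edgeR and DESeq2 on recovered reads were not run, since whole reads were not recovered. Loci near 0 are limited by depth: 1 read was 0.73 to 1.35 normalized counts in Col-0.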

Other observations

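Some of the widest Col-0 changes were not called. AT2G27228 had 199 and 756 normalized counts in Col-0 mock and was listed at 0 in both rapamycin libraries (adjusted p = 0.646). AT3G25570, an adenosylmethionine decarboxylase, was listed at 0 in both mock libraries and had 53.9 and 26.9 with rapamycin (adjusted p = 0.702). AT1G18000, a transporter of the major facilitator family, had 62.4 and 96.8 in mock and 0 and 28.3 with rapamycin (adjusted p = 0.3). AT3G23480, a lipid synthase, had 11.2 and 9.53 in mock and 33.6 and 26.1 with rapamycin (adjusted p = 0.399), and AT5G63250 had 10.3 and 12.5 in mock and 50.9 and 22.3 with rapamycin (adjusted p = 0.107). These 5 loci were taken from loci whose Col-0 groups do not overlap, so their lack of overlap was set by that choice.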
